A study of Homo sapiens with 6 samples.

Results

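The genes described are 9 genes of iron uptake, storage, export, sensing and iron-sulfur cluster assembly: TFRC, SLC11A2, FTH1, FTL, NCOA4, SLC40A1, ACO1, IREB2 and ISCU. They were chosen by symbol, and each matched 1 of the 57688 rows of the deposited expression table. RNA sequencing was run on WM3248, an established human cell line from a VGP primary melanoma. In the siPGC1a group (3 libraries) the cells had received an siRNA against PPARGC1A, which encodes the transcriptional coactivator PGC1-alpha, and in the siNC group (3 libraries) they had received the AllStars negative control siRNA. Each siRNA was given at 30 nM with Lipofectamine 2000, RNA was taken 48 h after transfection, and both groups grew in the same medium with serum, insulin, pituitary extract and epidermal growth factor. Each target was addressed with a single siRNA in a single cell line, and no label says that the replicates were grown and transfected separately. A p-value here therefore refers to the spread among 6 libraries, and part or all of that spread may be technical.

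Cells take up most of their iron as transferrin through the transferrin receptor TFRC, pass it out of endosomes through the transporter SLC11A2 (DMT1), store the excess in ferritin shells made of FTH1 and FTL, and release it through the exporter SLC40A1 (ferroportin). NCOA4 carries ferritin to the lysosome when stored iron is needed, and ISCU is the mitochondrial scaffold on which iron-sulfur clusters are first built. When iron is scarce, the iron regulatory proteins ACO1 (IRP1) and IREB2 (IRP2) bind an RNA hairpin, the iron-responsive element, where they block translation from the 5′ UTR of ferritin and ferroportin transcripts and protect the TFRC transcript from decay through its 3′ UTR. Part of this control therefore acts on translation and cannot be read from transcript levels.

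The hairpins are shown because they are a sequence feature that ties transcripts to iron sensing. The rule below was met in 4 of these genes. GENCODE release 29 transcripts were searched for a 6-base loop CAGTGN closed by an upper stem of 5 base pairs, an unpaired C before that stem, and at least 4 of 5 pairs in the lower stem, with G-U pairs allowed. Capitals mark the loop, each site has 30 bases, and coordinates are of GRCh38.
FTH1 5′ UTR (chr11:61967573-61967602, minus strand): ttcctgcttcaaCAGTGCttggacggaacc
FTL 5′ UTR (chr19:48965335-48965364, plus strand): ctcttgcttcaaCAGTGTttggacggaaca
SLC40A1 5′ UTR (chr2:189580660-189580689, minus strand): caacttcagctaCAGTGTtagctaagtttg
TFRC 3′ UTR, site 1 (chr3:196050978-196051007, minus strand): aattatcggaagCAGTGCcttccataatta
TFRC 3′ UTR, site 2 (chr3:196050574-196050603, minus strand): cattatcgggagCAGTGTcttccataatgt
TFRC 3′ UTR, site 3 (chr3:196050509-196050538, minus strand): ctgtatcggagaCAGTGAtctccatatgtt
TFRC 3′ UTR, site 4 (chr3:196050462-196050491, minus strand): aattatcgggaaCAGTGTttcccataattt
The search found such a hairpin in the 5′ UTR of 7 of 19210 protein-coding genes (0.0364%) and in the 3′ UTR of 11 of 19421 (0.0566%). It found none in SLC11A2, ACO1, IREB2, NCOA4 or ISCU, which says only that no stretch of their annotated UTRs met this rule.

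The values are FPKM (fragments per kilobase of gene, scaled to the library's reads), computed by the authors. Steps in the low values gave a depth of 25180000 to 26430000 reads per library. PPARGC1A was at 0.400, 0.354 and 0.413 FPKM in siPGC1a libraries, against 0.932, 1.04 and 0.947 FPKM in siNC libraries. This fall of 60.0% in the mean (limma adjusted p = 0.00024) checks the labels, and it rests on 97 to 117 reads per siPGC1a library and 260 to 290 per siNC library. None of the 8 melanocytic markers was listed at 0 throughout. Of the 7 that could be tested, 1 was higher and 4 were lower in siPGC1a cells by the threshold given below. Of all genes tested, 25.6% were higher and 22.5% were lower. The immune markers PTPRC and MRC1 were listed at 0 in every library, and the 5 immune markers summed to 0.806 to 1.22 FPKM in siPGC1a libraries and 0.782 to 1.33 FPKM in siNC libraries, most of it CD14. The erythroid markers HBA2 and HBB were listed at 0 in every library, and the 5 erythroid markers summed to at most 0.112 FPKM in siPGC1a libraries and 0.018 FPKM in siNC libraries. Of 5 fibroblast markers, the 3 tested (COL1A1, COL1A2 and LUM) were lower, as were 22.5% of all genes tested. The list of 5 summed to 9.68 to 11.1 FPKM in siPGC1a libraries and 14.4 to 15.6 FPKM in siNC libraries. The part of the fibroblast markers in the results below was not tested. In bulk RNA, fewer cells of a type and less RNA per cell cannot be told apart.

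ISCU and TFRC were higher, FTL, FTH1 and SLC11A2 were lower, and NCOA4, SLC40A1, ACO1 and IREB2 did not pass the threshold (limma on log2(FPKM + 1), Benjamini-Hochberg adjusted p under 0.05 over 12021 genes). The count of 5 called genes of 9 (55.6%) stands beside 48.1% of all genes tested, of which 25.6% were higher and 22.5% lower, and is near that background. The groups did not overlap for 7 of the 9 genes (77.8%), against 57.2% of all genes tested. The median absolute log2 fold change was 0.19 over the 9 genes and 0.147 over all genes tested, whose median log2 fold change was 0.007. SLC40A1, with a mean of 0.144 FPKM, was the only one of the 9 below the filter of 1 FPKM and was tested regardless. A positive log2 fold change means higher in siPGC1a cells, and the added 1 FPKM makes it smaller than the true change for genes of low level. For single values, 3 against 3 libraries cannot give an exact permutation p below 0.1.

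**Figure D1:**
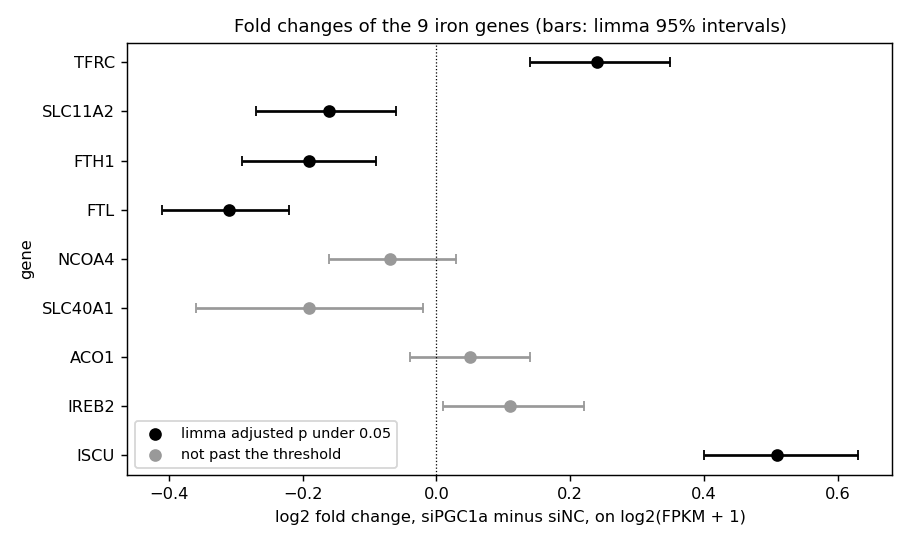
Log2 fold changes (siPGC1a minus siNC, on log2(FPKM + 1), x axis) of the 9 iron genes, with the limma 95% interval as a bar. Black points passed the threshold after adjustment over all genes and grey points did not. ISCU lies farthest to the right at 0.51 and FTL farthest to the left at -0.31. The intervals are not adjusted for the number of genes, so those of IREB2 and SLC40A1 lie off 0 although their adjusted p did not pass.

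Of the uptake genes, TFRC was higher and SLC11A2 lower. TFRC, which binds iron-loaded transferrin at the cell surface, was at 85.4, 80.0 and 88.3 FPKM in siPGC1a libraries, against 73.9, 69.0 and 71.0 FPKM in siNC libraries. Every siPGC1a library lay above every siNC library. The means were 84.6 ± 4.19 and 71.3 ± 2.47 FPKM (SD, n = 3 each), a rise of 18.6% (log2 fold change 0.24, SE 0.046, limma adjusted p = 0.00203). SLC11A2, which moves ferrous iron out of the endosome, was at 7.69, 7.0 and 7.27 FPKM in siPGC1a libraries, against 8.41, 8.25 and 8.28 FPKM in siNC libraries. Its siNC values lay close together and above all siPGC1a values. The means were 7.32 ± 0.35 and 8.32 ± 0.0863 FPKM (SD, n = 3 each), and SLC11A2 fell by 11.9% (log2 fold change -0.16, SE 0.046, limma adjusted p = 0.0153). SLC11A2 kept its call under all 14 alternatives, but narrowly in some (limma adjusted p between 0.0099 and 0.0497). With quantile scaling the TFRC difference shrank to 0.13 (limma adjusted p = 0.0437, where the alternatives ran between 0.000471 and 0.0437).

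Both ferritin subunits were lower in siPGC1a cells. FTL, the light subunit, which helps iron cores form, was at 1838, 2041 and 1944 FPKM in siPGC1a libraries, against 2340, 2457 and 2424 FPKM in siNC libraries. It ranked first or second among all rows in every library, and no siPGC1a library reached the lowest siNC library. Its means were 1940.8 ± 101.8 and 2407.3 ± 60.3 FPKM (SD, n = 3 each), so FTL fell by 19.4% (log2 fold change -0.31, SE 0.0422, limma adjusted p = 0.000297). FTH1, the heavy subunit, which oxidises iron for storage, was at 192.1, 214.2 and 203.5 FPKM in siPGC1a libraries, against 225.9, 239.8 and 229.5 FPKM in siNC libraries. The groups did not overlap here either. Its means were 203.3 ± 11 and 231.7 ± 7.25 FPKM (SD, n = 3 each), and FTH1 fell by 12.3% (log2 fold change -0.19, SE 0.0456, limma adjusted p = 0.00727). In each group, replicate 2 had the highest FTL and FTH1 values and the lowest TFRC value.

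Both ferritin calls ended when no filter on low values was applied, with the log2 fold changes still at -0.31 and -0.19 (limma adjusted p = 0.0612 for FTL and 0.0582 for FTH1; the alternatives ran between 6.43e-05 and 0.0722 for FTL and between 0.00178 and 0.0582 for FTH1). FTL was at -0.07 with quantile scaling (limma adjusted p = 0.0722), which gives each rank the same value in every library. As FTL held the top rank or the next throughout, that scaling leaves it little room to change. FTH1 and FTL have many near-identical copies in the genome, and the sources used here do not say how reads shared by such copies were counted. The table holds 25 FTH1 pseudogene rows, which summed to 3.86 to 4.39 FPKM in siPGC1a libraries and 3.92 to 4.68 FPKM in siNC libraries, led by FTH1P3 (mean 1.19 FPKM) and FTH1P23 (mean 0.828 FPKM). The 16 FTL pseudogene rows summed to at most 2.92 FPKM, led by FTLP3 and FTLP2. Added to their parent genes, they left the log2 fold changes at -0.19 for FTH1 and -0.31 for FTL. The level of FTH1 is uncertain for another reason too: 1267 of its 2030 annotated exon bases overlap BEST1 on the other strand, and the strand setting of the counting was not given. BEST1 was at 2.1 FPKM in siPGC1a cells and 2.46 FPKM in siNC cells.

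NCOA4, the receptor that delivers ferritin to the lysosome, was at 34.3, 33.3 and 36.1 FPKM in siPGC1a libraries, against 36.8, 35.6 and 36.3 FPKM in siNC libraries. The groups overlapped, and the difference did not pass (log2 fold change -0.07, 95% interval -0.16 to 0.03, limma adjusted p = 0.209). It passed with quantile scaling (limma adjusted p = 0.0312, where the alternatives ran between 0.0312 and 0.484).

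**Figure D2:**
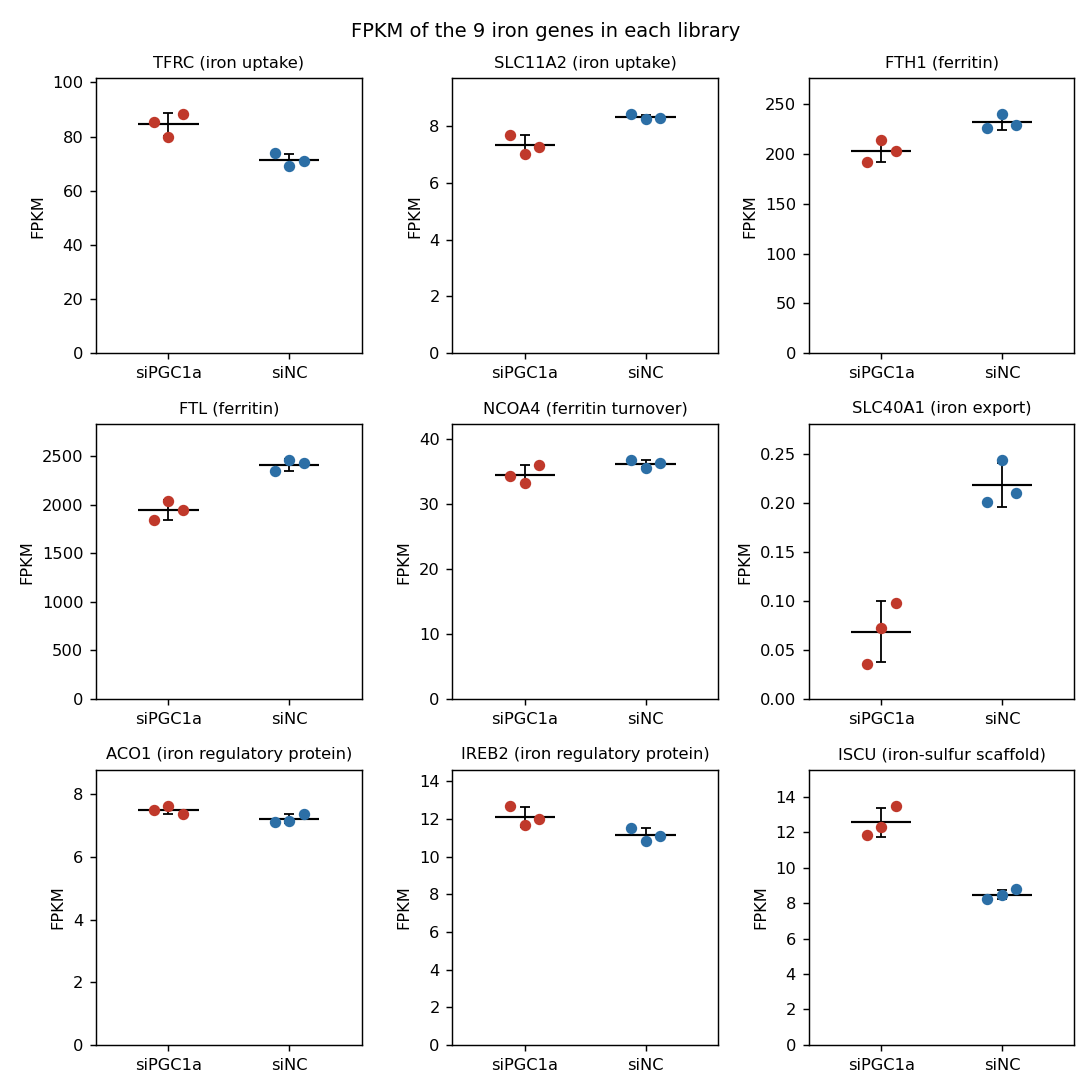
FPKM of each of the 9 iron genes (y axis, from 0, a separate scale per gene) in the 3 siPGC1a and 3 siNC libraries (points, replicates 1 to 3 from left to right), with the mean as a line and the SD as a bar. TFRC and ISCU sit higher in siPGC1a, FTL, FTH1 and SLC11A2 sit lower, and the points of NCOA4 and ACO1 overlap or meet between groups.

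The iron exporter was barely expressed. SLC40A1 was at 0.036, 0.073 and 0.098 FPKM in siPGC1a libraries, against 0.201, 0.244 and 0.210 FPKM in siNC libraries. Every siPGC1a value lay below every siNC value, but these levels correspond to 4, 8 and 11 reads in siPGC1a libraries and 23, 27 and 23 reads in siNC libraries. The sums were 23 reads in siPGC1a libraries and 73 reads in siNC libraries. The exact Poisson 95% intervals, which cover counting error only, reached up to 10.2, 15.8 and 19.7 reads in siPGC1a libraries, against lower bounds of 14.6, 17.8 and 14.6 reads in siNC libraries. The ratio of means was 0.316, and the difference did not pass (log2 fold change -0.19, SE 0.0754, limma adjusted p = 0.0632). It passed under 4 alternatives, with limma adjusted p of 0.0119 without a filter, 0.012 with a filter of 5 FPKM for other genes, 0.00752 without a trend and 0.0421 with array weights. With a pseudocount of 0.1 the log2 fold change was -0.93 with an adjusted p of 0.0797. Over all limma alternatives the adjusted p ran between 0.00752 and 0.477.

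The iron regulatory proteins did not pass in either direction. ACO1, which is a cytosolic aconitase when it holds an iron-sulfur cluster and an RNA-binding protein without one, was at 7.50, 7.63 and 7.38 FPKM in siPGC1a libraries, against 7.12, 7.15 and 7.38 FPKM in siNC libraries. The lowest siPGC1a value equalled the highest siNC value, and the log2 fold change was 0.05 (95% interval -0.04 to 0.14, limma adjusted p = 0.352). IREB2, which is kept low by degradation when iron is plentiful, was at 12.7, 11.7 and 12.0 FPKM in siPGC1a libraries, against 11.5, 10.8 and 11.1 FPKM in siNC libraries. Its groups did not overlap, yet the smallest gap between them was narrow, and the log2 fold change of 0.11 (95% interval 0.01 to 0.22) did not pass (limma adjusted p = 0.0771, where the alternatives ran between 0.0248 and 0.228). It passed with array weights (0.0248) and with the replicate number as a block (0.0458). Of the 3 other genes on the list of iron regulatory proteins and their control, FBXL5 and CUL1 were higher and SKP1 did not pass. That is 66.7% called, against 48.1% of all genes. FBXL5, the iron-sensing adaptor that marks IREB2 for degradation, was at 15.4, 14.1 and 17.03 FPKM in siPGC1a libraries, against 12.1, 11.4 and 11.6 FPKM in siNC libraries (log2 fold change 0.37, limma adjusted p = 0.00108). CUL1, the cullin of the same ligase, had a log2 fold change of 0.12 (limma adjusted p = 0.0417). FBXL5 shares 18 of 4573 exon bases with FAM200B and CUL1 shares 385 of 3548 with a lowly expressed gene, both on the other strand.

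ISCU showed the largest change of the 5 genes past the threshold, and on the log2(FPKM + 1) scale also of all 9; with a pseudocount of 0.1, SLC40A1 at -0.93 exceeded ISCU at 0.56. It was at 11.9, 12.3 and 13.5 FPKM in siPGC1a libraries, against 8.24, 8.43 and 8.77 FPKM in siNC libraries. The lowest siPGC1a library stood well above the highest siNC library. The means were 12.6 ± 0.838 and 8.48 ± 0.27 FPKM (SD, n = 3 each), a rise of 48.0% (log2 fold change 0.51, SE 0.0529, limma adjusted p = 6.15e-05), and 530 of the 12021 genes tested had a larger absolute log2 fold change. ISCU kept its call under all 14 alternatives, with log2 fold changes of 0.47 to 0.56.

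The partners of ISCU in mitochondria went both ways. Of 20 other tested genes of mitochondrial iron and iron-sulfur assembly, 7 were higher, 4 were lower and 9 did not pass (55.0% called, against 48.1% of all genes), with a median log2 fold change of 0.02. NFS1, the cysteine desulfurase that supplies sulfur to ISCU, was at 5.91, 5.68 and 6.10 FPKM in siPGC1a libraries, against 9.45, 10.04 and 9.74 FPKM in siNC libraries. The groups lay far apart (log2 fold change -0.64, SE 0.0456, limma adjusted p = 8.01e-06), in the opposite direction to ISCU. NFS1 shares 88 of 6024 exon bases with ROMO1 on the other strand, an abundant gene that did not pass, and 289 with a gene on its own strand that was listed at 0, and is uncertain to that extent. FDXR, the reductase that feeds electrons to cluster assembly, averaged 16.9 ± 0.647 FPKM in siPGC1a cells and 11.2 ± 0.976 FPKM in siNC cells (SD, n = 3 each, limma adjusted p = 9.37e-05). HSPA9, the chaperone that helps release finished clusters from ISCU, had a log2 fold change of 0.32 (limma adjusted p = 0.000259). NUBPL, which serves cluster insertion into complex I, had a log2 fold change of -0.24 (limma adjusted p = 0.00554).

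Ratios taken within a library do not depend on a single scaling factor per library. The pairs were chosen after the values were seen, so the ratios are given as a description. The ISCU level was 2.01, 2.17 and 2.21 times that of NFS1 in siPGC1a libraries, and 0.872, 0.840 and 0.900 times in siNC libraries. The ratio was thus higher in every siPGC1a library. Which of these partners is the more abundant depends on the gene lengths that FPKM divides by, so only the change of the ratio is described. TFRC stood at 4.65, 3.92 and 4.54% of FTL in siPGC1a libraries and at 3.16, 2.81 and 2.93% in siNC libraries. The lowest siPGC1a ratio was above the highest siNC ratio. FTL stood at 9.56, 9.53 and 9.55 times FTH1 in siPGC1a libraries and at 10.4, 10.2 and 10.6 times in siNC libraries. IREB2 stood at 1.69, 1.53 and 1.63 times ACO1 in siPGC1a libraries and at 1.62, 1.51 and 1.51 times in siNC libraries, and these groups overlapped. Quantile scaling is not a single factor per library and changes such relations. The log2 fold changes were then 0.13 for TFRC, -0.07 for FTL and -0.17 for FTH1. FTL held the top rank or the next in every library, so this scaling nearly fixes its value whatever its level. Its -0.07 therefore cannot be set against the change of FTH1.

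**Figure D3:**
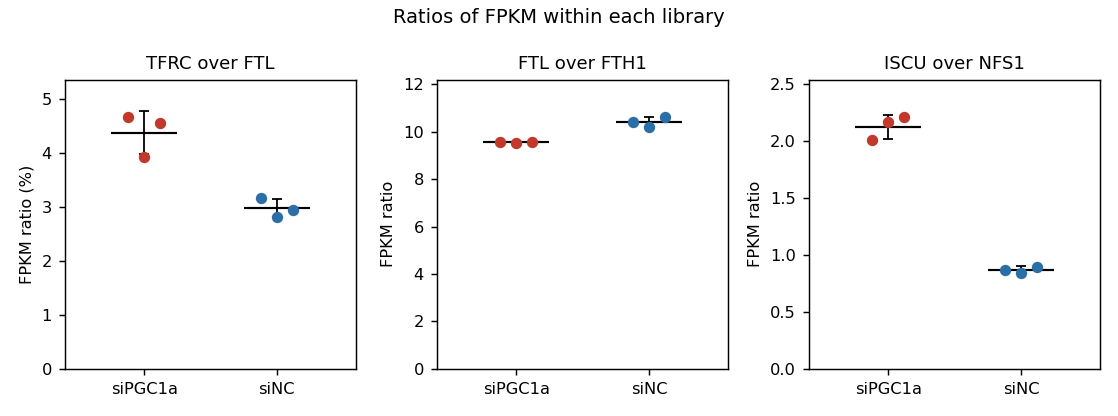
Ratios of FPKM within each library (y axes, from 0) for TFRC over FTL in percent, FTL over FTH1, and ISCU over NFS1, in the 3 siPGC1a and 3 siNC libraries (points), with the mean as a line and the SD as a bar. TFRC over FTL and ISCU over NFS1 are higher in every siPGC1a library, and FTL over FTH1 is lower.

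Beyond the 9 genes, 89 others stand on 8 lists of iron, iron-sulfur and haem genes. Of the 69 that were tested, 25 were higher, 15 were lower and 29 did not pass (58.0% called, against 48.1% of all genes), and their median log2 fold change was 0.08. Among 10 tested genes of iron entry, 2 were higher, 4 were lower and 4 did not pass (60.0% called, against 48.1% of all genes). HFE, which binds TFRC and limits transferrin uptake, averaged 2.64 ± 0.127 FPKM in siPGC1a cells and 4.89 ± 0.171 FPKM in siNC cells (SD, n = 3 each, log2 fold change -0.70, limma adjusted p = 9.37e-06). SLC39A14, a transporter of zinc and of iron not bound to transferrin, averaged 24.4 ± 0.418 FPKM in siPGC1a cells and 19.2 ± 0.533 FPKM in siNC cells (SD, n = 3 each, limma adjusted p = 0.000163). CYBRD1, a ferric reductase, was higher (log2 fold change 0.22) and LRP1, an endocytic receptor, was lower (-0.31), with 59 of 20839 exon bases shared with STAT6 on the other strand. Melanotransferrin (MELTF), an iron-binding surface protein first described on melanoma cells, was at 48.0 FPKM in siPGC1a cells and 48.8 FPKM in siNC cells and did not pass (limma adjusted p = 0.709). MELTF was chosen after its values were seen.

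Of 5 tested genes of cytosolic iron handling, 2 were higher and 3 did not pass (40.0% called, against 48.1% of all genes). The higher ones were GLRX3, a glutaredoxin that carries iron-sulfur clusters (log2 fold change 0.36), and PCBP1, a chaperone that loads ferritin (0.21). PCBP1 shares 914 of its 1750 exon bases with PCBP1-AS1 on the other strand, which was listed below 1 FPKM. On the list of export and hepcidin control, BMP6, the ligand that raises hepcidin in liver, was the only one of 9 genes above the filter, with means of 2.31 FPKM in siPGC1a cells and 1.84 FPKM in siNC cells (limma adjusted p = 0.029). Of the oxidases that serve iron export, HEPH was listed at 0 in every library and CP was at most 0.102 FPKM; both were chosen after their values were seen. Cytosolic iron-sulfur assembly gave 4 higher, 0 lower and 5 not past of 9 (44.4% called, against 48.1% of all genes). Of all genes tested, 25.6% were higher and 22.5% lower. CIAO1 and CIAO2B, which hand clusters to cytosolic and nuclear proteins, averaged 53.6 and 87.7 FPKM in siPGC1a cells, against 44.0 and 70.5 FPKM in siNC cells (limma adjusted p = 0.000232 and 0.00138).

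Haem genes were split, with 6 higher, 6 lower and 6 not past of 18 (66.7% called, against 48.1% of all genes). Their median log2 fold change was 0.01. HMOX2, the constitutive haem oxygenase, averaged 20.6 ± 0.915 FPKM in siPGC1a cells and 15.4 ± 0.253 FPKM in siNC cells (SD, n = 3 each, limma adjusted p = 0.000108), though it shares 228 of 3793 exon bases with NMRAL1 on the other strand. FLVCR1, first described as a haem exporter, had a log2 fold change of 0.37 (limma adjusted p = 0.00054). FECH, which inserts iron into haem, averaged 2.55 ± 0.107 FPKM in siPGC1a cells and 3.34 ± 0.0374 FPKM in siNC cells (SD, n = 3 each, limma adjusted p = 0.00115). ABCB10, a mitochondrial transporter needed for haem synthesis, had a log2 fold change of -0.23. On the list of other transcripts with an iron-responsive element, 3 genes were tested (66.7% called, against 48.1% of all genes). EPAS1 (HIF-2 alpha) was lower (-0.17), CDC42BPA was higher (0.15) and 1 did not pass. CDC42BPA shares 440 of 14055 exon bases with a lowly expressed gene on the other strand.

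**Figure D4:**
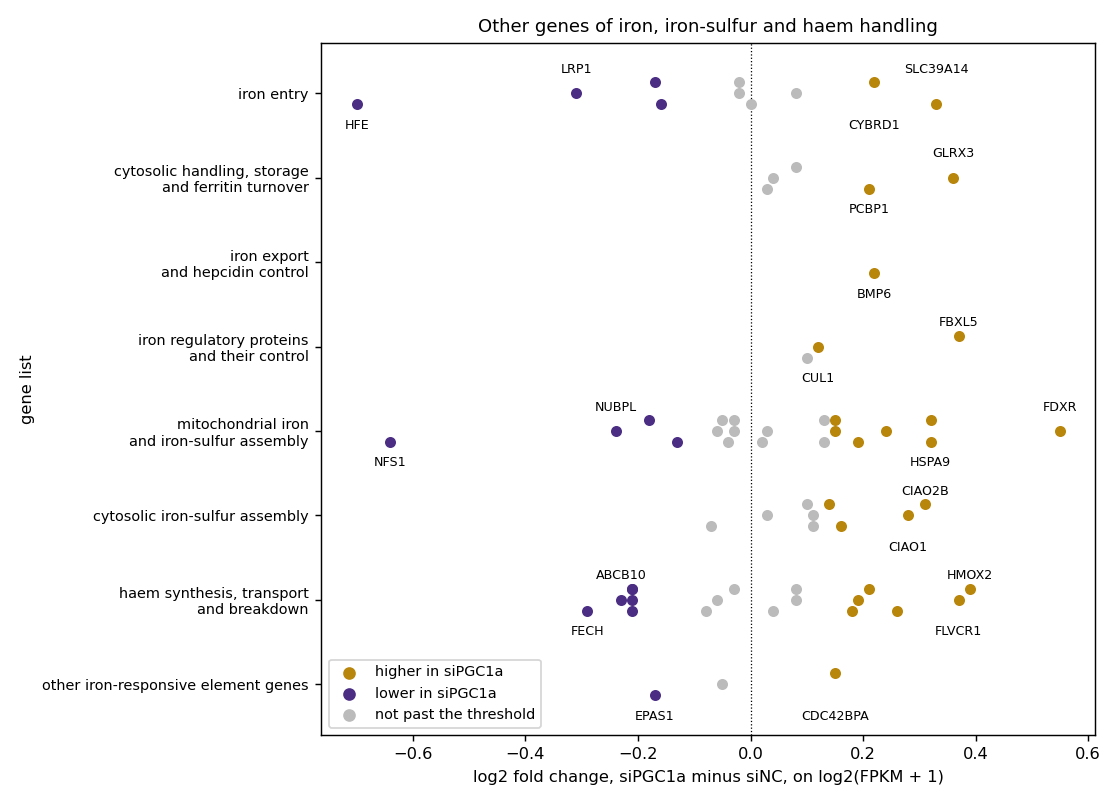
Log2 fold changes (siPGC1a minus siNC, on log2(FPKM + 1), x axis) of the tested genes of 8 lists (rows), the 9 genes above left out. Ochre points were higher, violet points lower, and grey points did not pass; labels stand above or below the named genes. HFE (-0.70) and NFS1 (-0.64) lie farthest to the left and FDXR (0.55) farthest to the right.

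The 3′ UTR word ACACCT was held by 51.8% of all lower genes, 25.7% of higher genes and 36.5% of those not past. The word may have been chosen with earlier results of these data known, so the shares are given as a description. These shares take no account of 3′ UTR length, and longer ones hold any short word more often. The part of the word in these results was not tested. In the longest annotated 3′ UTR, FTL, FTH1, TFRC, ISCU, ACO1 and SLC40A1 held it at 0 places, and SLC11A2, NCOA4 and IREB2 at 1 place each. Of the other genes named by list, the lower genes HFE and NFS1 held it at 2 places each and FECH and EPAS1 at 1, while LRP1, NUBPL and ABCB10 held none. Of the higher ones, FLVCR1 held it at 4 places and SLC39A14, BMP6 and FDXR at 1 each, while all the others held none. The promoters of 8 of the 9 genes are in the RefSeq table (GRCh38.p14, 250 bases before to 50 after the start), and FTH1 is not. The letters TNAAGGTCA are an element bound by the estrogen-related receptors that partner PGC1-alpha. They stood on either strand in 0 of the 13 promoters of these 8 genes and in 0.951% of all promoters. At that share, 13 promoters are too few for a count of 0 to tell them from the rest. The letters TGACNNNGC, the core of the antioxidant response element, stood in at least 1 promoter of ISCU and of NCOA4. They stood in 13.3% of all promoters, a share counted by promoter and not by gene.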

How the data were processed

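The deposited values are FPKM per gene and library, computed by the authors; per the submitters' processing notes the tools were STAR, Picard, featureCounts and DESeq2 and the build hg19, with no version or role stated, and the library kit is stranded poly(A), read as single reads of 50 bases, per the labels' protocols. Here, log2(FPKM + 1) of genes with a mean of at least 1 FPKM, and of the 9 genes and PPARGC1A regardless, was compared with limma 3.58.1 (trend, R 4.3.3, two-sided, no replicate block), adjusted by Benjamini-Hochberg over 12021 genes, threshold 0.05; the method was tested on simulated data. Depth came from the whole-read steps of FPKM values with GENCODE 29 exon lengths: 93.6 to 93.9% of values of up to 20 reads were whole within 0.1 read, against 20.0% by chance. Read totals limit precision little except for SLC40A1 and PPARGC1A. Libraries of a group differed beyond sampling noise (chi-square per degree of freedom 1.94 to 5.81), so none was a copy. The 9 genes, the lists and the tests were chosen with earlier results of these data known. Other genes named are, per list, up to 2 of each direction past the threshold with the smallest adjusted p, and for ISCU, FTL and TFRC the nearest genes by pattern; a few genes are not reported here. Alternatives were another pseudocount, no and stricter filters, 2 scalings, no trend, array weights, a replicate block, each library left out, and pseudogene rows added. The reference is of another build than hg19, so its coordinates are given for hairpins only.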

Additional observations from a re-analysis of the deposited data

How the results depend on the processing

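All 9 genes and PPARGC1A kept their direction under every alternative run (14 each, 15 for FTH1 and FTL). ISCU, TFRC, SLC11A2 and PPARGC1A also kept their calls. With 1 library left out, 5 of the 9 genes were called each time, beside 4646 of 12010 to 5374 of 12064 of all genes. Without a filter, 23 of 84 other iron genes were called, against 40 of 69. Of all genes, 4723 of 30981 were then called, against 5780 of 12021, and more genes with low values were tested. Counts over all genes were 4126 to 6378, against 5780, over the alternatives. The lowest was of 7273 genes tested (filter of 5 FPKM) and the highest of 12021 (array weights). With the replicate number as a block, 6079 genes, 6 of the 9 genes (IREB2 added) and 40 other iron genes were called. Same-numbered libraries deviated with correlations of 0.0766, 0.261 and -0.0575, of which 0.261 was the highest of all pairs. Not every library correlated best with its own number: siPGC1a replicate 3 did so with siNC replicate 1 (0.253). So few pairs cannot tell whether same-numbered libraries shared more than a number, and this was not tested. Calls of FTL, FTH1, NCOA4, IREB2 and SLC40A1 that changed are given beside their values; the cause was not tested. The median log2 fold change of all genes was 0.00714 as reported, 0.00723 with quantile scaling and 0.00367 with median scaling. Both scalings align the libraries, so this median was bound to stay small and says nothing of single genes. With quantile scaling TFRC went from 0.242 to 0.129 and FTL from -0.312 to -0.073. Depth limits SLC40A1 alone among the 9.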

Other observations

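The hairpin search also matched 14 genes outside the 9, of which 8 were tested. PDK1, a kinase that restrains pyruvate dehydrogenase, holds a match in its 3′ UTR and averaged 2.56 FPKM in siPGC1a cells and 4.24 FPKM in siNC cells (log2 fold change -0.56, limma adjusted p = 2.87e-05). TMEM132A, with a match in its 5′ UTR, was lower (log2 fold change -0.30, limma adjusted p = 0.00522), SAPCD2, with one in its 3′ UTR, was higher (0.22, limma adjusted p = 0.00733), and the other 5 did not pass. Of all genes tested, 48.1% passed the threshold. A match is a description of the letters and not of binding. These genes were chosen after their values were seen.

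By Euclidean distance between the 6 log2 values, each centred on its own mean, the tested genes nearest to ISCU were GSTO1 (distance 0.0486, means 77.3 FPKM in siPGC1a cells and 53.3 FPKM in siNC cells), LY6K (0.0493) and PBDC1 (0.0514), where the median distance over genes was 0.659. Near to FTL were PIK3CD (0.0313) and PPIB (0.0523), with a median of 0.451. Nearest to TFRC were PAFAH1B1 (0.0257), PRKAR1A (0.0307) and WDR12 (0.0307), with a median of 0.366. With 12021 genes and 6 libraries in 2 groups, close neighbours are plentiful, and the distances are given as a description.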
